A study of Mus musculus with 12 samples.

Results

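The comparison described here sets the 3 arrays of liver RNA taken 6 h after injection of concanavalin A (ConA) against the 3 arrays taken 3 h after it, 6 of the 12 arrays of the series, chosen by their labelled agent and time point. Each array held RNA of the whole liver of Balb/c male mice aged 8 to 10 weeks, and ConA had been given into the tail vein at 20 mg/kg. The other 6 arrays, 3 labelled untreated at 0 h and 3 at 1 h after ConA, entered the fit and are quoted for their levels. The methods of the study state PBS for the negative control. The extraction protocol in the labels speaks of liver from each mouse, but no label ties an array to an animal, so p-values measure the spread between these samples. No mice were sampled at 3 h or 6 h without ConA, so time since ConA and time of day cannot be told apart. In all, 18193 genes were compared, and the question was which genes still moved, and in which direction, after the first 3 h of the response.

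ConA is a plant lectin that activates T cells and, through them, macrophages and endothelium, and in the mouse it causes an acute hepatitis. The cytokines released early, among them TNF and interferon gamma, act on hepatocytes through NF-kB and other transcription factors. Within hours such a liver makes acute-phase proteins and antigen presentation machinery, while many enzymes of hepatocyte metabolism are known to fall. Cells whose secretory pathway is loaded answer with the unfolded protein response, in which the kinases and factors IRE1, PERK and ATF6 raise chaperones and the transcription factor ATF4 raises amino acid transporters and tRNA synthetases.

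The 3 h arrays were dimmer overall. Their median signal was between 13.6 and 14.7, against 17.8 to 20.4 at 6 h, and the median log2 change over all genes was 0.24 (1.18-fold) as deposited and 0 after quantile normalization, which gives every array the same distribution. The spike-in controls bioB, bioD and cre, bacterial or phage RNAs added in fixed amounts, differed by only -0.0019 on the log2 scale between 6 h and 3 h. The control bioC was at 219 on 3 h replicate 1 and between 222 and 225 on the 6 h arrays, but at 539 and 542 on 3 h replicates 2 and 3. Counts of calls with the bioC level as a block, in which the contrast rests on 3 h replicate 1 alone, are therefore given beside most lists. Single genes that lost their call there are marked only in part, so a gene without such a mark may have lost it too. The number of named genes that kept their side of the threshold there is given in the last section. The 3'/5' signal ratio of Actb, a sign of RNA integrity, was 2.32 to 2.48 at 3 h and 1.92 to 2.15 at 6 h. Its part in the differences was not tested. Albumin, Alb, the defining product of hepatocytes, gave 9047, 9823 and 9217 on the 3 h arrays and 10205, 10331 and 10664 on the 6 h arrays (replicates 1, 2 and 3 in this order, here and throughout), a log2 change of 0.15 that did not pass the test (adjusted p = 0.18).

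**Figure D1:**
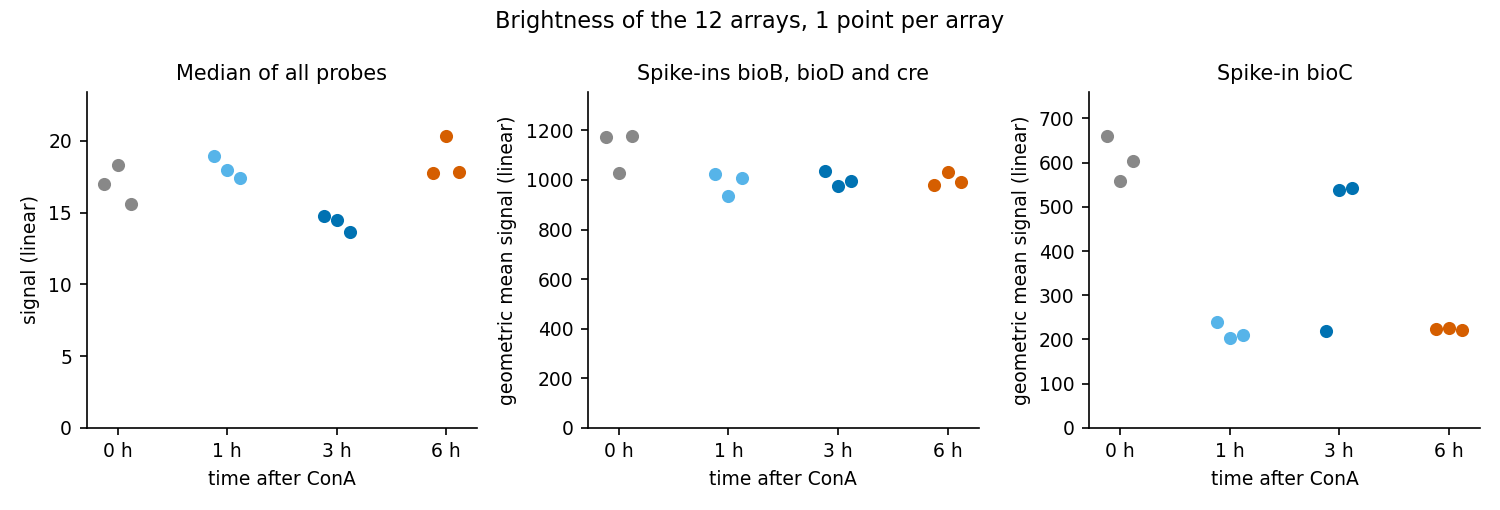
Each point is 1 array, grouped by hours after ConA (horizontal axis), with linear signal on the vertical axis for the median of all probes, the spike-ins bioB, bioD and cre, and the spike-in bioC. The 3 h arrays have the lowest medians (13.6 to 14.7), their mean bioB, bioD and cre signal (976 to 1036) overlaps that at 6 h (979 to 1031), and bioC has a low and a high level.

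A gene is called higher or lower here only where limma gave an adjusted p under 0.05 with the same sign on both scales, the deposited one and the quantile-normalized one, and "rose" and "fell" mean this. A signed or bare decimal in brackets after a gene name is its log2 change on the deposited scale. Under that rule 1689 genes (9.28% of those tested) rose from 3 h to 6 h and 695 (3.82%) fell, of which 817 and 272 changed at least 2-fold and 144 and 27 at least 4-fold on the values as deposited. The 3 arrays of each group did not overlap for 1684 of the 1689 and 690 of the 695. These genes had already passed the test on both scales, so the lack of overlap is no separate support. The share over all genes was not counted. On the deposited scale alone 3412 genes (18.8%) passed upwards and 695 (3.82%) downwards, so that 83.1% of the calls were higher. After quantile normalization 1691 (9.29%) were higher and 1862 (10.2%) lower, and 47.6% were higher. That share was 33.9% with each array centred on its median and 92.4% with each centred on all its spike-ins. With bioC, which differed among the 3 h arrays, left out of the spike-ins it was 83.3%. No gene was called in opposite directions on the deposited and the quantile-normalized scale. Rescaling thus moved the number of lower genes from 695 to 1862 and that of higher genes from 3412 to 1691. Without 6 h replicate 2 the number passing upwards on the deposited scale was 2249. With the bioC level as a block the numbers under both scalings were 734 and 324, of which 612 and 246 were among those above, and with 3 h replicate 1 as the only 3 h array they were 702 and 296.

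**Figure D2:**
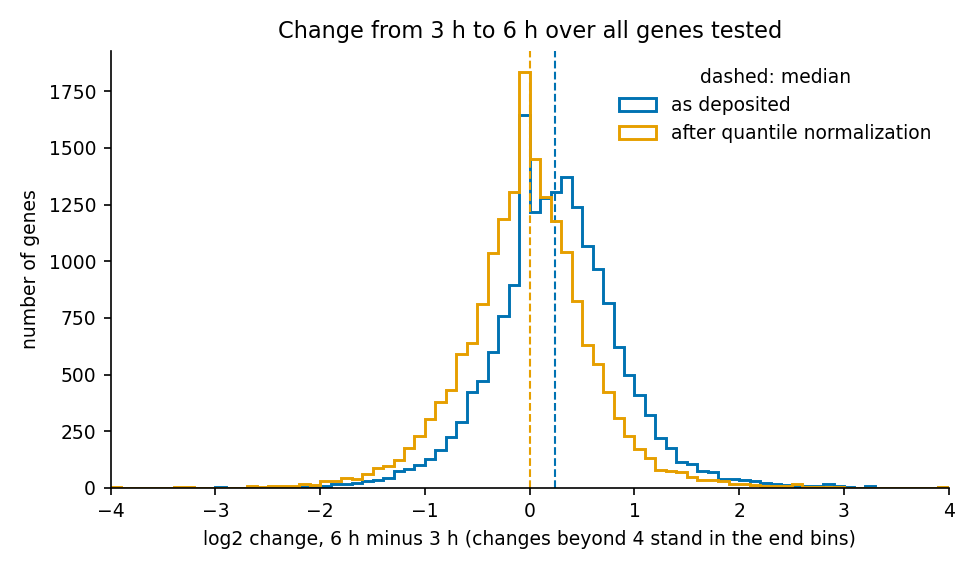
Histogram of the log2 change from 3 h to 6 h (horizontal axis) over all 18193 genes (number of genes, vertical axis), as deposited and after quantile normalization. Rescaling moves the median, a dashed line for each, from 0.24 to 0.

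The largest rise was that of A2m, alpha-2-macroglobulin, a protease inhibitor secreted by hepatocytes in the acute phase. Its signal was 21.8, 19.8 and 13.1 on the 3 h arrays and 483, 1135 and 1244 on the 6 h arrays. All 6 h arrays lay far above all 3 h arrays, which were themselves close to the 0 h arrays (5.04, 15.7 and 9.90), so the rise came after 3 h. It was 49.5-fold, a log2 change of 5.63 (SE 0.47, adjusted p = 0.00031, 3 arrays per group), and 5.34 at an equal bioC level. Bhlha15, a transcription factor of secretory cells also called MIST1, had a signal of 8.17, 3.17 and 3.04 on the 3 h arrays and 82.5, 99.6 and 101 on the 6 h arrays. The 3 h arrays were at or near the floor of 3.04, the value given to all dimmer signals, so the log2 change of 4.46 (SE 0.55, adjusted p = 0.0010) depends on it. Reg3g, an antibacterial lectin, went from 3.04, 3.04 and 4.27 to 44.6, 62.1 and 93.6, with all 0 h and 1 h arrays at the floor (log2 change 4.23, SE 0.24, adjusted p = 0.00010). Derl3, a component of the channel that takes misfolded proteins out of the endoplasmic reticulum, went from 5.42, 9.50 and 24.5 to 186, 127 and 191. That is 15.3-fold. The 0 h arrays had 21.0, 27.9 and 46.1, above all 3 h arrays but replicate 3, so the 6 h arrays were the highest after a low point at 3 h.

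The 250 bases upstream of the RefSeq start site (build GRCm38.p6) are shown, 5′ to 3′, for the first rises and falls that qualified. Their window had to hold at least 1 of 11 motifs searched on both strands. Genes without a promoter entry and those on 1 chromosome set aside were passed over. Capitals mark the matches, which are matches of letters and not shown to be bound.
Reg3g (chr6:78468875-78469124, minus strand): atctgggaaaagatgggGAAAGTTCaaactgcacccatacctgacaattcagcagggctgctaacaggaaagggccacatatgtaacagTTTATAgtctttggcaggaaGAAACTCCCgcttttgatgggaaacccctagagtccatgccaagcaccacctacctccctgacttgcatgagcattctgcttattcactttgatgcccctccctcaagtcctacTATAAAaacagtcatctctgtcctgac
Derl3 (chr10:75893148-75893397, plus strand): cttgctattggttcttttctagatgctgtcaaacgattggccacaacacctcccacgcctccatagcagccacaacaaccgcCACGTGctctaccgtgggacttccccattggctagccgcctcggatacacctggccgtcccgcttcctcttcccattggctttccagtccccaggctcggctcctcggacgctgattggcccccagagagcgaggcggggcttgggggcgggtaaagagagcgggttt
Sucnr1 (chr3:60081619-60081868, plus strand): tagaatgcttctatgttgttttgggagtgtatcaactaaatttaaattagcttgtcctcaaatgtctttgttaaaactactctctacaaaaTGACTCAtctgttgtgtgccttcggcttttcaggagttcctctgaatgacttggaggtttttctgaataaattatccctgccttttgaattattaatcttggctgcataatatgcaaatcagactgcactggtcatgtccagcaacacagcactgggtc
Htra1 (chr7:130935953-130936202, plus strand): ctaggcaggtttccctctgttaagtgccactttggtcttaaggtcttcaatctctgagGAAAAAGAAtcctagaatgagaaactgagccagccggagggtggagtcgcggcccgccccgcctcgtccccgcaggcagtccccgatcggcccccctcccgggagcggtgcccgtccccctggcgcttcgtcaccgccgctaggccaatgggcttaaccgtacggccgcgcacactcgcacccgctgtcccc
In Reg3g the capitals are, from the left, a heat shock element unit (GAANNTTC), a TATA box (TATAAA, in reverse), a kB site (GGGANTTTC, in reverse) and a second TATA box ending 22 bases before the start. Derl3 held an E-box (CACGTG), Sucnr1 an AP-1 site (TGANTCA) and Htra1 the core of an interferon-stimulated response element (TTCNNTTTC, in reverse). Of 14452 genes with a promoter entry, 7.56% held the E-box and 5.58% the AP-1 site. Among the genes that rose the E-box was in 9.43% and among those that fell in 8.32%, both near the share of all.

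Ddit4, an inhibitor of mTOR signalling induced by stress, was at 13.8, 10.4 and 13.9 at 3 h and 65.2, 234 and 318 at 6 h (log2 change 3.75, SE 0.59, adjusted p = 0.0026). Ass1, argininosuccinate synthase of the urea cycle, had 14.2, 14.7 and 17.7 and 93.2, 260.2 and 264, against 242, 148 and 191 at 0 h, so its 6 h signals were above the 0 h arrays on replicates 2 and 3 and below them on replicate 1. Its log2 change was 3.59 (SE 0.42, adjusted p = 0.00090). Pdgfc, a growth factor for mesenchymal cells, went from 53.1, 33.1 and 63.7 to 280.2, 440.4 and 561, and both of its probes were called. Dusp1, a phosphatase that switches off MAP kinases, went from 88.3, 58.5 and 110.0 to 218, 1385 and 1140.5. Replicate 1 was the lowest of the 6 h arrays for Dusp1, Ass1, Ddit4 and A2m, and for 10 of the 15 largest rises. Over all 1689 rises the 6 h array nearest to the 3 h arrays was replicate 1 for 45.1%, replicate 2 for 12.9% and replicate 3 for 42.0%. Il21, a T cell cytokine, went from 3.04, 3.04 and 4.76, at or near the floor, to 28.7, 25.9 and 35.4 (log2 change 3.07, adjusted p = 0.00016). The rest of the 15 were Rbmxl2, an RNA-binding protein (3.27), Arntl, the clock factor BMAL1 (3.26), the zinc finger protein Zfp688 (3.25), the kinase Map3k21 (3.23), the monocarboxylate transporter Slc16a6 (3.22) and Rcc1, the exchange factor of the GTPase Ran (3.20), each value a log2 change. Of all these genes, Dusp1, Slc16a6, Arntl and Rcc1 missed the threshold with the bioC level as a block (adjusted p = 0.082, 0.17, 0.17 and 0.10). Dusp1, Slc16a6 and Arntl also missed it in a fit of only the 6 arrays at 3 h and 6 h (0.058, 0.050 and 0.055), and Ddit4 with 3 h replicate 1 as the only 3 h array (0.062).

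Where all 3 arrays of a group were at the floor only a bound can be given. Fbxo32, a ubiquitin ligase of atrophying muscle also called atrogin-1, was at the floor on all 3 h arrays and at 23.1, 40.1 and 26.7 at 6 h, at least 9.58-fold higher (adjusted p = 0.00069), with 0 h arrays at 34.5, 41.3 and 30.9. Nefh, a neurofilament protein, was at least 7.44-fold higher, and Sarm1, an NAD-degrading enzyme, at least 6.59-fold (adjusted p = 1.2e-05). Bnip5 and Rps6kl1 were at least 5.10-fold and 4.82-fold higher. In the other direction Bmp6, the growth factor by which liver endothelium controls hepcidin, had 20.2, 16.4 and 10.7 at 3 h and the floor on all 6 h arrays, at least 5.01-fold lower (adjusted p = 0.00069). Setd4, Tsnaxip1, Cep295nl and Hspb7 were lower by at least 4.53-fold, 4.22-fold, 4.10-fold and 3.54-fold. Of these 10 genes, Fbxo32, Nefh and Sarm1 kept their calls with the floor at the 40th percentile of signal, and the other 7 did not (adjusted p = 0.082 to 0.52, 0.18 for Bmp6). Bnip5, Rps6kl1, Tsnaxip1, Cep295nl and Hspb7 also missed the threshold with the bioC level as a block (0.055 to 0.21). Setd4 missed it without 3 h replicate 3 (adjusted p = 0.061) and without 6 h replicate 2 (0.053), and Cep295nl without 3 h replicate 2 or any 6 h array (adjusted p = 0.075, 0.058, 0.064 and 0.059).

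The largest fall was that of Rnd1, a small GTPase that loosens actin fibres. Its signal was 2383, 2768 and 2276 on the 3 h arrays and 143, 174 and 184 on the 6 h arrays, 14.8-fold lower (log2 change -3.89, SE 0.25, adjusted p = 0.00016). The 0 h arrays had 34.0, 42.6 and 22.5 and the 1 h arrays 594, 639 and 389, so the 3 h arrays were the peak of the series and the 6 h arrays still lay above the 0 h arrays. Sucnr1, the succinate receptor, went from 58.1, 84.0 and 87.1 to 13.3, 5.12 and 3.04, the last at the floor, from 245, 289 and 224 at 0 h. Its log2 change was -3.67 (SE 0.46, adjusted p = 0.0011). Its 1 h arrays had 161, 101 and 128, so that it fell stepwise, with no overlap between any of the 4 groups. Fmo2, a flavin monooxygenase, had 245, 112 and 188 at 3 h and 19.8, 30.7 and 15.6 at 6 h, and 3 of its 5 probes were called lower. Cd163, the haemoglobin scavenger receptor of macrophages, had 58.1, 47.5 and 41.6 and 8.18, 9.79 and 7.97, with little spread within a group (log2 change -2.50, SE 0.14, adjusted p = 0.00010). Hsd3b5 and Hsd3b2, near-identical 3-beta-hydroxysteroid dehydrogenases whose probes may take up each other's RNA, were lower 6.71-fold and 5.09-fold. Upp2, a uridine phosphorylase of liver, went from 1859, 1894 and 2025 to 635, 486 and 168, and all 3 of its probes were called. With the bioC level as a block Upp2 and Hsd3b5 missed the threshold (adjusted p = 0.054 and 0.14).

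Among the remaining falls of the largest 15, Dock6, an exchange factor of Rac1 and Cdc42, had a log2 change of -2.95, and Arhgap24, a GTPase-activating protein, one of -2.31. Nrep, a neuronal regeneration protein, changed by -2.94, Gdf10, a member of the TGF-beta family, by -2.67, Htra1, a secreted serine protease, by -2.42, and the ADP receptor P2ry1 by -2.37. Marveld1 changed by -2.94, but 1 of its 3 other probes was called in the opposite direction. Krt23, a keratin, changed by -2.29 and missed the threshold without 3 h replicate 3 (adjusted p = 0.061), with the 6 arrays alone (0.093) and with the bioC level as a block (0.25). Htra1 and P2ry1 missed it with the floor at the 40th percentile (0.057 and 0.21), and Htra1 also with the mean of all its probes.

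**Figure D3:**
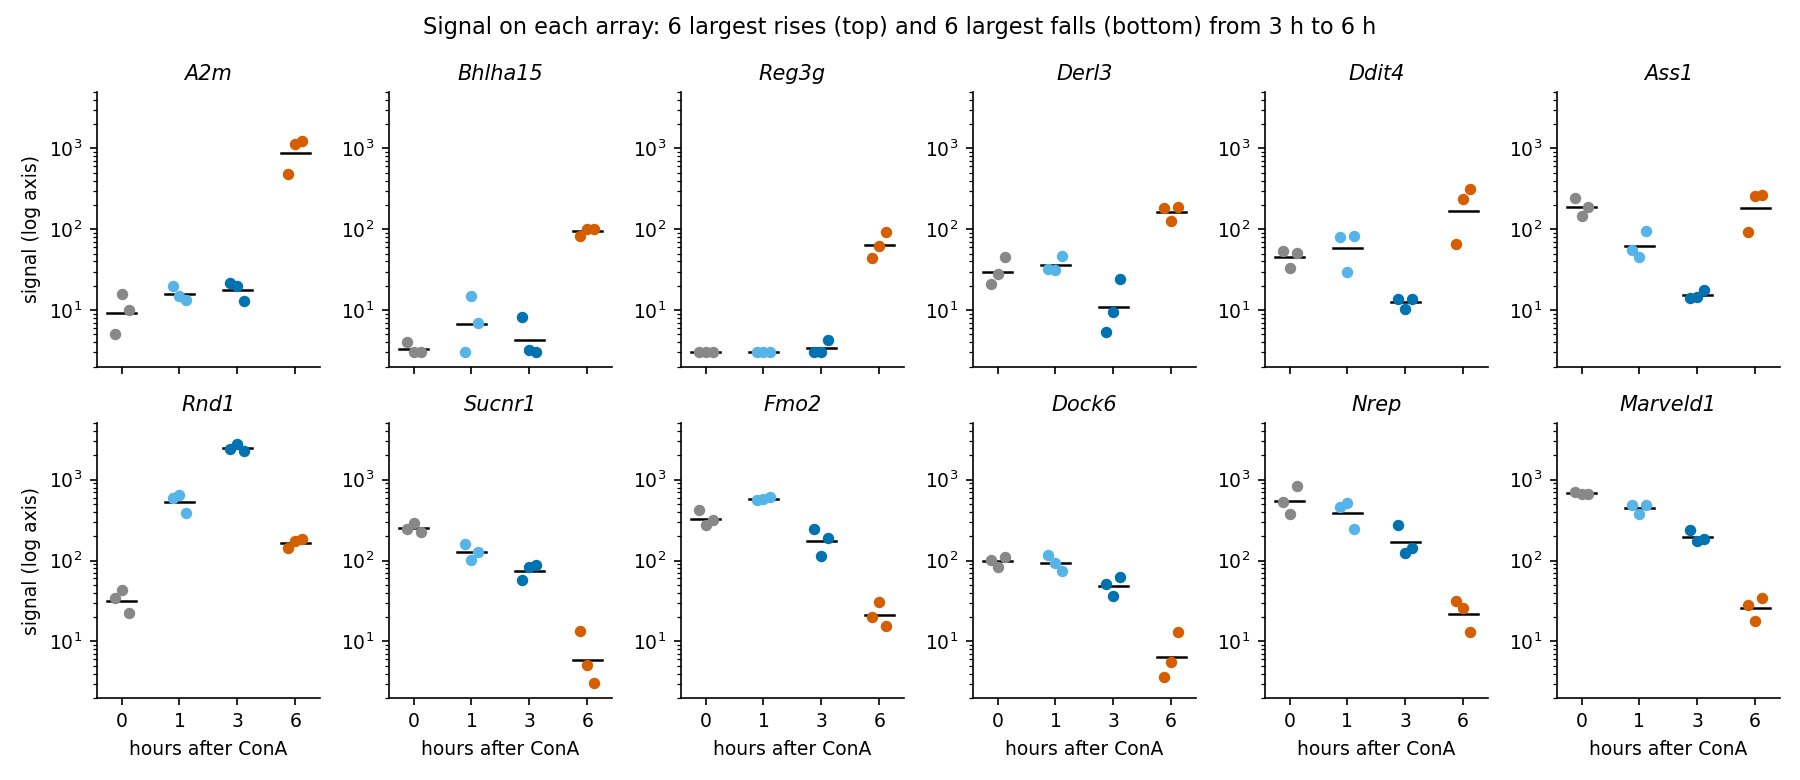
Signal of the 6 largest rises (top) and 6 largest falls (bottom) on each array (points, log axis) against hours after ConA, with the geometric mean of each group as a bar. Rnd1 peaks at 3 h, A2m, Bhlha15 and Reg3g stay low until 3 h, and Ddit4 and Ass1 are lowest at 3 h.

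The genes of 57 lists, 1380 of 1517 of them measured, were then read against the shares of all genes. The lists with the largest shares of rises were those of the endoplasmic reticulum, antigen processing and amino acid stress, with 60.7%, 60% and 52.9% of their members. Beside the study's own network, the largest shares of falls were in amino acid breakdown (34.9%), NF-kB (33.3%) and bile acids (32.4%). Counts below are of genes called under both scalings, beside 9.28% of all genes higher and 3.82% lower.

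**Figure D4:**
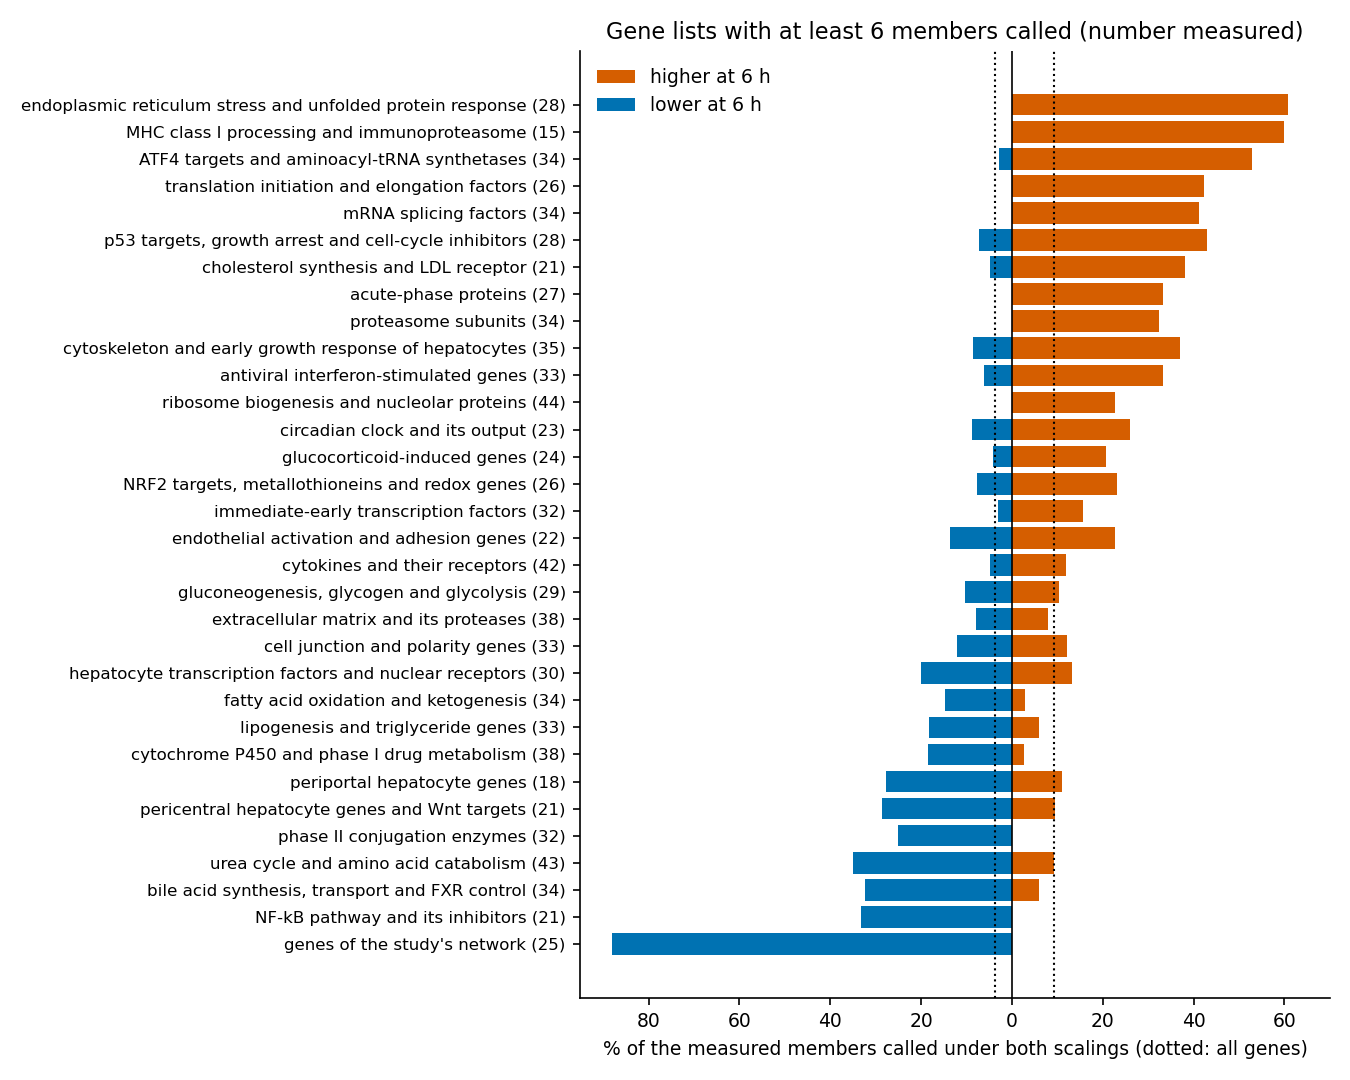
Percentage of the measured members of each list (number in brackets) called higher (right) or lower (left) at 6 h under both scalings, for lists of at least 15 measured genes with at least 6 called. The dotted lines are the shares of all genes (9.28% and 3.82%). The genes of the study's network were picked on these arrays.

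Of 28 measured genes of endoplasmic reticulum stress and the unfolded protein response, 17 rose, 0 fell and 11 missed the threshold, and the median log2 change of the list was 0.78 as deposited and 0.60 after quantile normalization. Creld2, a chaperone-like secreted protein, had a signal of 479, 1035 and 353 at 3 h and 3048, 2595 and 3252 at 6 h (log2 change 2.40, SE 0.44, adjusted p = 0.0050). Sdf2l1, a partner of BiP, had 131, 209 and 71.9 and 789, 492 and 704 (log2 change 2.37). Wfs1, the membrane protein wolframin, had 42.9, 85.3 and 64.2 and 225, 203 and 228 (log2 change 1.82). For each of these the 0 h arrays lay in or near the range of the 3 h arrays or between the groups, as with Creld2 (521, 259 and 788), so the rise dated from after 3 h. Hspa5, Manf, Ddit3 and Xbp1 were chosen after their values were seen. Hspa5, the chaperone BiP that senses unfolded proteins, went from 5021, 6019 and 4449 to 8413, 8545 and 8458, 1.65-fold. Manf, a secreted stress protein, rose 2.56-fold, and Ddit3, the death-linked factor CHOP, 2.73-fold. Xbp1, whose spliced form carries the IRE1 signal, had 5077, 4633 and 5191 at 3 h and 5629.5, 6186 and 5470.3 at 6 h and did not pass (log2 change 0.21, adjusted p = 0.34). It had already stood at 2989, 3031 and 3713 at 0 h, and these probes do not tell its spliced form from the other. Blocking on bioC, 8 members were called higher, and with only the 3 h array of low bioC 10.

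Of 34 ATF4 targets and aminoacyl-tRNA synthetases, 18 rose, 1 fell and 15 did not pass, with a median log2 change of 0.72 as deposited and 0.52 after quantile normalization. Nupr1, a stress-induced chromatin protein, had 7.17, 15.9 and 10.1 at 3 h and 54.4, 51.7 and 56.1 at 6 h (log2 change 2.37, SE 0.28, adjusted p = 0.00090). Trib3, a pseudokinase that restrains AKT, went from 15.2, 21.7 and 15.9 to 75.3, 112 and 91.7, with 71.5, 143 and 46.1 at 0 h, so that its 3 h arrays were the low point. Sesn2, an inhibitor of mTOR complex 1 under leucine shortage, changed by 2.64 on the log2 scale (adjusted p = 0.011). The genes of amino acid supply Asns, asparagine synthetase, and Slc7a5, a transporter of large neutral amino acids, were chosen after their values were seen. Asns went from 16.5, 13.4 and 15.2 to 88.6, 58.0 and 85.5, 5.08-fold, and Slc7a5 from 20.9, 24.0 and 15.3 to 79.7, 92.1 and 94.0, 4.48-fold. Atf4 itself rose 1.55-fold (656, 736 and 638 to 1183, 1083 and 897). The 1 member that fell was Shmt2, the mitochondrial serine hydroxymethyltransferase (-0.57). With the bioC level as a block 9 members were called higher and 0 lower.

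A composite element read by C/EBP and ATF factors, searched as TGATGCAA on both strands, was in the upstream window of 6 of the 29 promoters of this list (20.7%) and in 88 of all 14452 (0.609%). The list was drawn up from known targets of ATF4, so the share describes the list and not these livers. Up to 16 bases on each side of every match are shown, in order of the log2 change of the gene, with the match in capitals.
Nupr1 (chr7:126625557-126625596, minus strand): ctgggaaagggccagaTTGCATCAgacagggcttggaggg
Chac1 (chr2:119351033-119351072, plus strand): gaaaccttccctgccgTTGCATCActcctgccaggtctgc
Fgf21 (chr7:45615606-45615645, minus strand): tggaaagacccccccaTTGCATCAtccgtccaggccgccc
Tars (chr15:11399659-11399689, minus strand): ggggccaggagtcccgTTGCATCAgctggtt
Aars (chr8:111033714-111033753, plus strand): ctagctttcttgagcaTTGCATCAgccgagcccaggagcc
Slc7a11 (chr3:50443656-50443695, minus strand): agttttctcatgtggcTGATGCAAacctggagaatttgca
Slc7a11 (chr3:50443637-50443676, minus strand): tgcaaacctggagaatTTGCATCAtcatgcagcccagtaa
Nupr1, Chac1 and Tars rose, by 2.37, 1.34 and 1.04. Fgf21, a fasting hormone of liver, had 4.99, 3.04 and 3.04 at 3 h and 4.51, 21.9 and 6.63 at 6 h and did not pass (adjusted p = 0.14). Neither did Aars (0.23, adjusted p = 0.33) nor Slc7a11, the cystine transporter (-0.70, adjusted p = 0.30), whose window held the element at 2 places. The 6 genes with these letters thus held 3 that rose and 3 that did not pass.

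**Figure D5:**
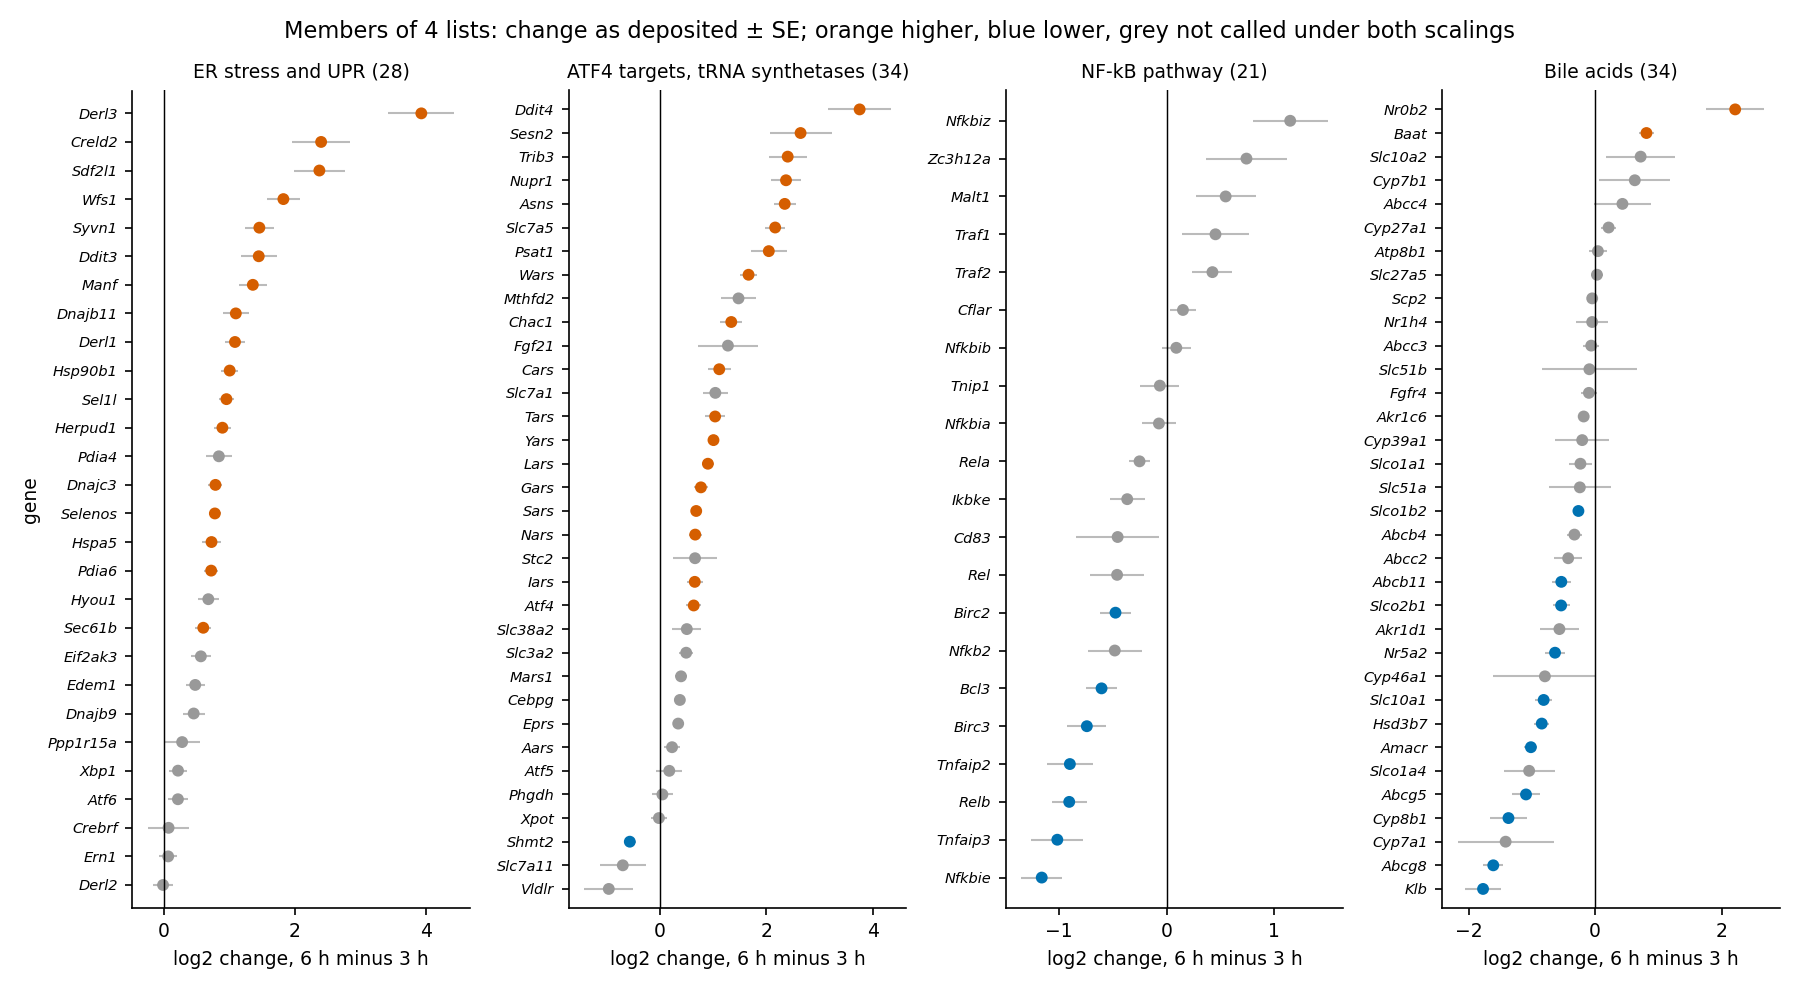
Log2 change from 3 h to 6 h as deposited (horizontal axis, bars ± SE) for every measured member (vertical axis) of 4 lists, coloured by the call under both scalings. All 17 called endoplasmic reticulum genes and 18 of 19 called ATF4 genes lie right of 0, and all 7 called NF-kB genes and 11 of 13 called bile acid genes lie left of it.

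Growth arrest genes held more rises than falls. Of 28 p53 targets and cell-cycle inhibitors, 12 rose, 2 fell and 14 did not pass, with a median log2 change of 1.09 as deposited. Cdkn1a, the inhibitor p21, had 88.1, 100.2 and 101 on the 3 h arrays and 330.3, 794 and 1098 on the 6 h arrays. Its 0 h arrays had 9.39, 12.3 and 26.4, so the rise was stepwise and the 6 h arrays lay above all others. Phlda3, an inhibitor of AKT, changed by 2.45, and Ddit4 and Sesn2, named above, are also on this list. Tob1 and Gadd45a were chosen after their values were seen. Tob1, an antiproliferative protein, had 247, 178 and 183 at 3 h and 844, 1139 and 840.1 at 6 h, against 1272, 1359.7 and 1047 at 0 h, so that its low point was at 3 h. Gadd45a, a stress sensor, went from 296, 282 and 384 to 140.4, 71.9 and 71.4 (-1.83, adjusted p = 0.0099). Under the bioC block 5 were higher and 0 lower. Of 29 genes of cell death, 4 rose (13.8%, not far above the share of all genes) and 0 fell. Among the rises were Tnfrsf12a, the TWEAK receptor (81.2, 74.4 and 55.6 to 271, 316 and 317), and Bcl2l1, the survival protein BCL-XL (1.41 on the log2 scale). Tnfrsf12a did not keep its call with the bioC level as a block (log2 change 1.89). Of 32 cyclin, replication and mitosis genes 1 rose, Cdk4, and 0 fell, a share below that of all genes.

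The called genes of RNA and protein making all rose, by smaller amounts. Of 34 splicing factors 14 rose, of 26 translation factors 11, of 34 proteasome subunits 11 and of 44 ribosome biogenesis genes 10, and none of these 4 lists held a fall. Eif6, which keeps the large ribosomal subunit apart until it is ready, went from 783, 734 and 821 to 1561, 1805 and 1614, 2.13-fold. Npm1, a nucleolar histone chaperone, went from 872, 892 and 835 to 1711, 1699 and 1510.0, 1.89-fold, and Srsf3, a splicing factor, from 601, 514 and 530.2 to 1189, 1231 and 1102, 2.14-fold. Psma1, a proteasome core subunit, rose 1.88-fold, a call lost when all its probes were averaged. Changes of this size stand closer to the shift between scales, and of the ribosome biogenesis genes 27 were higher as deposited alone against the 10 under both. Of 27 cytosolic ribosomal proteins only Rps20 rose. With each array centred on its median the number of splicing factors called was 6. Under the bioC block the counts were 3 splicing factors, 3 translation factors, 2 proteasome subunits and 4 ribosome biogenesis genes.

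All calls among antigen processing and acute-phase genes were rises. Of 15 genes of MHC class I processing and the immunoproteasome, 9 rose and 0 fell (5 with the bioC level as a block). Psmb8, an interferon-induced proteasome subunit, had 193, 186 and 164 on the 0 h arrays, 406, 449 and 363 on the 3 h arrays and 1003, 943 and 894 on the 6 h arrays (log2 change 1.23, SE 0.14, adjusted p = 0.00090), and Tap2, of the peptide transporter, 186, 251 and 215 and 501, 471 and 437 (1.12). Of 27 acute-phase proteins 9 rose and 0 fell. Beside A2m, Orm2, an orosomucoid, went from 2726, 1838 and 2218 to 4545, 4392 and 4415, and Lbp, which presents lipopolysaccharide to CD14, from 2577, 2617 and 2228 to 4210.5, 4505 and 4267. Blocking on bioC left 1 acute-phase gene called. Saa1, a serum amyloid chosen after its values were seen, had 9589, 10013 and 9896 at 3 h and 11629, 12096 and 12039 at 6 h and did not pass (log2 change 0.28, adjusted p = 0.22).

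Interferon-stimulated genes went both ways. Of 33 antiviral genes, 11 rose, 2 fell and 20 did not pass, and with each array centred on its median 6 were called higher. Isg20, an exonuclease, went from 125, 166 and 127 to 522, 645 and 548 (log2 change 2.04, SE 0.23, adjusted p = 0.00085), and Zbp1, a nucleic acid sensor of necroptosis, from 139.8, 138 and 111 to 552, 389.7 and 470.0 (1.85). The falls were Ifit1, which binds foreign RNA caps, from 1353, 2100.2 and 1252 to 776, 747 and 625, and Parp14, from 1140.4, 1254 and 1124 to 787, 895 and 700.1. Both stayed above their 0 h arrays (106, 82.5 and 104 for Ifit1). Of 25 interferon gamma response genes 2 rose and 1 fell, shares near those of all genes. Irf1, a transcription factor of the first wave, went from 3871, 3559.6 and 3647 to 2291, 1731 and 1752 (log2 change -0.95, adjusted p = 0.0028). Ubd, a ubiquitin-like protein induced by TNF and interferon gamma, went the other way, from 401, 339 and 551 to 1658, 1352 and 1070.5 (log2 change 1.67, adjusted p = 0.015). Its call was lost without 3 h replicate 2 (adjusted p = 0.051) or 6 h replicate 1 (0.052), and with the bioC level as a block (log2 change 1.74). Wars, the tryptophan synthetase that interferon gamma induces, rose 3.17-fold. Of the antiviral genes 4 were called higher and 0 lower with the bioC level as a block.

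Among NF-kB genes all calls were falls. Of 21 genes of the pathway and its inhibitors, 7 fell, 0 rose and 14 did not pass (10 lower after quantile normalization, 2 with the bioC level as a block), and the median log2 change was -0.37 as deposited and -0.54 after quantile normalization. Nfkbie, the inhibitor I-kappa-B epsilon, had 682, 686 and 594 at 3 h and 305, 312 and 261 at 6 h (log2 change -1.16, SE 0.19, adjusted p = 0.0031), and Relb, a subunit of the noncanonical pathway, 273, 289.8 and 254 and 142, 135 and 159 (-0.91). Tnfaip3, the deubiquitinase A20, went from 1235, 1470.1 and 1282 to 509, 792 and 697 (adjusted p = 0.015). Its call was lost without 3 h replicate 2 (adjusted p = 0.050) or 6 h replicate 1 (0.051), and with the bioC level as a block (log2 change -0.91). For all 3 the 6 h arrays remained above the 0 h arrays, as for Nfkbie at 54.2, 47.0 and 34.7. The others were Tnfaip2 (-0.90, adjusted p = 0.015, and 0.053 and 0.052 without 6 h replicates 2 and 3), Birc3 (-0.74), Bcl3 (-0.61) and Birc2 (-0.48). Tnfaip2 also missed the threshold with arrays centred on all spike-ins, with the mean of all its probes and with the 6 arrays alone.

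Of 22 genes of endothelial activation and adhesion 5 rose and 3 fell, with 9 higher on the deposited scale alone and 2 higher and 1 lower under the bioC block. The largest changes named by rule were Angpt2 (higher), Ednrb (lower), Pecam1 (higher, given below) and Icam1 (lower). At an equal bioC level Angpt2 changed by 1.01 and Ednrb by -1.54, and neither kept its call there. Angpt2 also lost its call without 3 h replicate 3 or 6 h replicate 2, and Ednrb with the mean of all its probes. Icam1, the ligand of leukocyte integrins, had 3071, 2628 and 2650.0 at 3 h and 1207, 1124 and 1146 at 6 h (log2 change -1.26, SE 0.10, adjusted p = 0.00031, and -1.41 at an equal bioC level). Il1b, a cytokine of macrophages, went from 287, 284 and 316 to 155, 102 and 83.1 (-1.43), its highest level having been at 1 h (631, 599.6 and 379). Cxcl10, a chemokine for activated T cells, went from 6007, 5339 and 5501 to 2084, 1427 and 1431 (-1.79). Of 35 chemokines and receptors 0 rose and 2 fell, with 8 higher on the deposited scale alone. Of 42 cytokines and receptors 5 rose and 2 fell, shares near those of all genes. The other chemokine that fell, Ccl3 (-0.95), lost its call without any 1 of the 0 h or 3 h arrays or of 6 h replicates 2 and 3, with an adjusted p of 0.037 over all arrays. Cxcl9, chosen after its values were seen, gave 8221, 7993 and 8203 at 3 h, then 9355, 9819 and 9526, and did not pass (log2 change 0.23, SE 0.40). The falls among cytokines were Il1b and Il1a (-1.01). The rises among cytokines and receptors were Il4ra (1.42), Il22ra1 (1.13), Tnfrsf1a (0.89) and Il6st (0.51), all receptors, and Il33, an alarmin (1.77, adjusted p = 0.014, and 0.050 without 3 h replicate 1). Blocking on bioC, 0 chemokines were called and 3 cytokines or receptors were higher.

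Cytoskeletal genes held members of both directions, and most calls among immediate-early genes were rises. Of 35 cytoskeleton and early growth response genes 13 rose and 3 fell. The falls were Rnd1, Rnd3 (from 754, 855 and 1079 to 297, 222 and 263) and Rhob (from 4347, 4525 and 4424 to 1643, 1250.0 and 1527), and all 3 had their highest level at 3 h. The rises were of filament proteins and their partners, such as Tubb6, a beta tubulin (104, 75.1 and 84.5 to 353, 460.3 and 613), and, chosen after their values were seen, gamma actin Actg1 (2159, 2326 and 3151 to 5823, 6730.3 and 6112) and keratin Krt18 (2148, 1256 and 1238 to 3805, 3904 and 4099). Blocking on bioC, 4 were higher and 3 lower. Of 32 immediate-early factors 5 rose (15.6%) and 1 fell, Egr3 (3.12%, below the share of all genes). The median changed sign with the scale, 0.09 as deposited and -0.17 after quantile normalization. Dusp1, Klf10 (1.59) and Ier2 (1.28) were higher at 6 h, each after a 3 h level below that at 1 h. Klf10 and Egr3 did not keep their calls with the bioC level as a block (log2 changes 1.85 and -1.14).

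Genes of bile acid handling held more falls than rises. Of 34 measured, 11 fell, 2 rose and 21 did not pass (16 lower after quantile normalization, 6 lower and 1 higher with the bioC level as a block), with a median log2 change of -0.25 as deposited and -0.55 after quantile normalization. Abcg8, which with Abcg5 exports sterols into bile, had 300.3, 335 and 269 at 3 h and 114, 99.0 and 84.0 at 6 h (log2 change -1.61, SE 0.16, adjusted p = 0.00047, and -1.61 at an equal bioC level). Klb, the coreceptor by which FGF15 represses bile acid synthesis, went from 138, 113 and 153 to 52.7, 48.2 and 23.7 (-1.77). Cyp8b1, the 12-alpha-hydroxylase, went from 649, 1452 and 1114 to 373, 472 and 344, its 3 h replicate 1 nearest to the 6 h arrays, and its change at an equal bioC level was -0.72 against -1.37 over all arrays. Nr0b2, the repressor SHP that FXR induces, rose from 87.7, 72.9 and 45.1 to 537, 285 and 188 (2.21). Slc10a1 and Cyp7a1 were chosen after their values were seen. Slc10a1, the main carrier for bile acid uptake, went from 4114, 3805 and 3812 to 2409.8, 2423 and 1878 (-0.81). Cyp7a1, which catalyses the first step from cholesterol to bile acids, had 32.9, 14.2 and 61.8 on the 3 h arrays and 11.8, 25.2 and 5.12 on the 6 h arrays and did not pass (log2 change -1.42, SE 0.76, adjusted p = 0.23), having been at 1598, 2747 and 579 at 0 h, so nearly all of its drop preceded 3 h.

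So did those of drug and steroid metabolism. Of 38 genes of cytochrome P450 and phase I metabolism 7 fell and 1 rose, and of 32 conjugation enzymes 8 fell and 0 rose. After quantile normalization 18 of each list were lower, and with the bioC level as a block 3 of each. Ugt2b35, a glucuronosyltransferase, went from 1801, 1858 and 2024 to 771, 553 and 419 (log2 change -1.75, SE 0.20, adjusted p = 0.00085), Adh4, an alcohol dehydrogenase, from 1361, 1305 and 1183 to 520.5, 534 and 360.2 (-1.46), and Fmo1 from 2129.8, 1516 and 1957 to 871, 908 and 516 (-1.32). The 0 h arrays of Adh4, at 1349, 1568 and 1223, overlapped its 3 h arrays, so its 6 h arrays alone stood apart from both. The member that rose was Cyp51, an enzyme of cholesterol synthesis. Nr1i3, the receptor CAR that drives many of these genes, went from 429, 343 and 419.7 to 186, 136 and 121 (-1.44).

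Amino acid breakdown held 15 falls and 4 rises among 43 measured genes, with 27 lower after quantile normalization and 8 lower and 1 higher with the bioC level as a block. Hal, which breaks down histidine, had 997, 865 and 939 at 3 h and 345, 369 and 258 at 6 h (log2 change -1.54, SE 0.15, adjusted p = 0.00053), Kynu, of the tryptophan pathway, 791, 807 and 828 and 296, 368 and 201 (-1.53), and Got1, an aspartate aminotransferase, 1117, 1128 and 1221 and 386, 573 and 375 (-1.40). Within the urea cycle Ass1 rose, as given above, while arginase Arg1 fell from 6288, 5739 and 6501 to 3823, 4516 and 3436. Arg1 and Glul, the glutamine synthetase that rose 1.66-fold, were chosen after their values were seen. Periportal genes held 5 falls and 2 rises among 18, and pericentral genes 6 falls and 2 rises among 21. Etnppl, a periportal lyase, changed by -1.74, and Lgr5, a Wnt target of pericentral cells, by -0.97. Both calls were lost when all probes of the gene were averaged, and that of Lgr5 also with the bioC level as a block (log2 change -0.74). Falls, at 27.8% of periportal and 28.6% of pericentral genes, were above the share of all genes. Rises, at 11.1% and 9.52%, were near it. The largest pericentral change named by rule was the rise of Slc13a3 (log2 change 1.42 at an equal bioC level). Under the bioC block 4 periportal genes were lower and 1 higher, and 1 pericentral gene each way.

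Sugar and fat genes were mixed. Of 29 genes of gluconeogenesis, glycogen and glycolysis 3 fell and 3 rose. Slc2a2, the glucose transporter of hepatocytes, fell from 2784, 2696 and 3288 to 1088, 894 and 692 (log2 change -1.73, SE 0.17, adjusted p = 0.00057), while Slc2a1, that of most other cells, rose from 86.0, 49.4 and 50.6 to 143, 163 and 299 (1.67) and Pkm, the pyruvate kinase of most other cells, from 47.0, 61.5 and 92.4 to 205, 147 and 219.7 (1.55). G6pc, the last enzyme of gluconeogenesis, was chosen after its values were seen. It had 33.7, 3.04 and 15.4 at 3 h and 19.2, 107 and 130.4 at 6 h, against 1548, 2079 and 1463 at 0 h, and did not pass (adjusted p = 0.088). Of 34 fatty acid oxidation genes 5 fell and 1 rose, and these included Ppargc1a, the coactivator of the pathway (-1.47), and Ppara, its nuclear receptor (0.93), in opposite directions. Of 33 genes of lipogenesis and triglycerides 6 fell and 2 rose, with Dgat2, which makes triglyceride, at 2725, 2912 and 3012 and 1421, 1497 and 1101, and Lpin1, a phosphatidate phosphatase and coactivator, at 217, 172 and 194 and 426, 817 and 667. Of 40 respiratory chain genes 2 fell and 0 rose, with 9 lower after quantile normalization. Fewer calls were made with the bioC level as a block. Higher and lower counts were then 0 and 1 for sugar genes, 0 and 1 for fatty acid oxidation, 0 and 3 for lipogenesis and 0 and 0 for the respiratory chain, and Slc2a1, Ppara and Ppargc1a missed the threshold (adjusted p = 0.086, 0.084 and 0.082).

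Cholesterol synthesis was the exception among these lists, with 8 rises and 1 fall among 21 genes (median log2 change 0.73 as deposited, 0.48 after quantile normalization). Sqle, squalene epoxidase, had 435, 345 and 186 at 3 h and 1282, 1562 and 1602 at 6 h (log2 change 2.28, SE 0.38, adjusted p = 0.0033), and Srebf2, the transcription factor of the pathway, 97.7, 116 and 70.3 and 224, 298 and 254 (1.47). Hmgcs1, chosen after its values were seen, had 2641, 2044 and 1475 and 4535, 5215 and 5031. In all of these the 6 h arrays lay above the 3 h arrays, and 3 h replicate 1 or 2 was nearest to them. Scap, the escort protein of SREBP, fell (-0.48). With each array centred on its median 5 were called higher and 2 lower, and no member was called with the bioC level as a block. The log2 changes of Sqle and Srebf2 at an equal bioC level were 1.76 and 1.39.

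Among nuclear receptors and hepatocyte transcription factors 4 of 30 rose and 6 fell. Hnf4a, the main regulator of hepatocyte identity, went from 1805, 1702 and 1773 to 3635, 4293 and 3444 (log2 change 1.10, SE 0.11, adjusted p = 0.00060), and Prox1 from 92.6, 82.7 and 90.3 to 213, 192 and 174 (1.12). Of the falls, Nr1i3 is given above, and Nr2f2, the receptor COUP-TFII, chosen after its values were seen, went from 69.2, 104 and 89.8 to 69.6, 46.4 and 44.5 (-0.72), with 1 array at 6 h inside the range at 3 h. Under the bioC block 1 of this list was higher and 1 lower. Of 23 clock genes 6 rose and 2 fell, and under the bioC block 3 were higher and 1 lower. Arntl, which with CLOCK drives the E-box genes, had 21.5, 3.04 and 16.1 at 3 h and 67.5, 118 and 114 at 6 h. Its 3 h replicate 2 was at the floor, and the change at an equal bioC level was 2.18 against 3.26 over all arrays, with no call in the bioC block as given above. Per1, a repressor of Arntl also induced by glucocorticoids, had 38.0, 48.3 and 62.6 and 113, 132 and 128 (1.35), and Hlf, an output gene of the clock, 149.9, 130.0 and 146 and 100.2, 66.7 and 58.6 (-0.95, with an adjusted p of 0.055 in the bioC block). The E-box was in 26.3% of the 19 clock promoters, a list that holds known targets of this element beside other clock genes. With no ConA-free mice at these hours, a daily rhythm in these genes cannot be told apart from the time since ConA.

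Markers of cell types were read for the cells that a whole liver holds, and in whole liver fewer cells of a type and less RNA per cell cannot be told apart. The summed signal of 19 T cell markers was 402 to 451 at 3 h and 643 to 718 at 6 h, and 1 of them passed. This was Cd28, the costimulatory receptor, at 5.46, 3.04 and 6.31 and 32.7, 27.2 and 40.5 (log2 change 2.81, SE 0.41, adjusted p = 0.0020), with values at 3 h near the floor. Of 16 natural killer and cytotoxic markers, 1 of which was at the floor in both groups, the sum was 261 to 309.9 at 3 h and 595 to 757 at 6 h, and Gzmb, granzyme B, went from 40.4, 36.9 and 44.6 to 311, 201 and 219 (2.56). The sum of 18 neutrophil markers was 8017 to 8549 at 3 h and 11007 to 12800 at 6 h, with 1 called. That was Itgam (1.73, adjusted p = 0.019), which missed the threshold without 3 h replicate 2, 3 h replicate 3 or 6 h replicate 2 (adjusted p = 0.053, 0.067 and 0.072). The sum of 16 monocyte and dendritic cell markers was 651 to 776 and 1156 to 1259, with 2 called. All of these sums were higher on each 6 h array than on each 3 h array, more than the 1.18-fold of the median gene, while few single markers passed. In a sum of linear signal the brightest members weigh most, so it does not stand for every marker of a list. Lcn2, among the neutrophil markers, is also on the acute-phase list. With the bioC level as a block no T cell, cytotoxic or monocyte and dendritic cell marker was called under both scalings, and 1 neutrophil marker was. The adjusted p of Gzmb in that fit was 0.092, and that of Itgam 0.33. The part of these cells in the rises of Il21 or the antigen processing genes was not tested.

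Markers of resident cells of the sinusoids held calls of both directions. Rises, at 10% of Kupffer cell, 4% of endothelial and 9.52% of stellate cell markers, were near or below the share of all genes. Falls were 15%, 12% and 4.76% in the same order, the last near the share of all genes. Of 20 Kupffer cell markers 3 fell and 2 rose. Cd163, Vsig4, a complement receptor (234, 214 and 219 to 145, 135 and 98.4), and Clec4f, a lectin of Kupffer cells (262, 278 and 236 to 172, 169 and 158), fell, while Cd68, a lysosomal protein (0.74), and Il18bp (1.42) rose. The summed signal of the list overlapped between the groups, 3818 to 4274 at 3 h and 3483 to 4320.4 at 6 h, and under the bioC block 1 marker was lower and 0 higher. Of 25 markers of sinusoidal endothelium 3 fell and 1 rose, with 11 lower after quantile normalization and 3 lower and 1 higher under the bioC block. Tek, the angiopoietin receptor TIE2, had 42.5, 41.2 and 30.9 and 10.9, 7.46 and 6.45 (log2 change -2.23, SE 0.26, adjusted p = 0.00085), and Ptprb, the phosphatase that acts on it, 308, 306 and 275 and 86.7, 114 and 58.8 (-1.83). Pecam1, an adhesion molecule of all endothelium, rose from 20.9, 25.7 and 34.2 to 59.1, 63.9 and 79.0. Of 21 stellate cell markers 1 fell and 2 rose, and of the cholangiocyte, erythroid and platelet lists, with 9, 6 and 9 genes measured, no gene passed. Of 11 hepatocyte markers 2 rose, Hnf4a and Fgb, and their summed signal was 67970 to 70450 at 3 h and 73945 to 79997 at 6 h. Of 11 common reference genes 1 rose, Ywhaz (0.74).

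The 25 measured genes of the network that the study built were selected on these same arrays, from genes with a steady change over time, so their direction here is no independent evidence. Of them 22 fell from 3 h to 6 h, 0 rose and 3 did not pass, with 25 lower after quantile normalization and 12 with the bioC level as a block. Their sizes are given as a description. Map2k6, a kinase of p38, had 122, 137 and 103 on the 0 h arrays, 38.6, 26.9 and 40.5 on the 3 h arrays and 9.29, 6.47 and 10.0 on the 6 h arrays. Car5a, the mitochondrial carbonic anhydrase, had 596, 704 and 541, then 320.2, 255 and 317, then 115, 93.2 and 71.4. Each group of both genes lay wholly below the one before. Tert, the telomerase protein, had 14.4 to 19.6 at 3 h and 4.54 to 7.04 at 6 h, near the floor, and missed the threshold without 6 h replicate 2 (adjusted p = 0.050). It also missed it with the floor at the 40th percentile, with the mean of all its probes and with the bioC level as a block (log2 change -1.87). Cdh2, the cadherin of hepatocytes, and Pard3, a polarity protein, fell by 0.80 and 0.76 on the log2 scale. Across the 22 the log2 changes ran from -2.04 for Map2k6 to -0.47 for Cmtm8, which lost its call without any 1 of the 3 h or 6 h arrays.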

How the data were processed

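Whole-liver RNA of Balb/c mice was hybridised to 12 Affymetrix Mouse 430 2.0 arrays, 3 per time point. The deposited values are linear signal intensities per probe set, 1 column per array. The submitters' processing notes name MAS5 version 5.0 for these intensities, whereas the methods of the study describe RMA normalization by the authors, so which software made the table is not settled. Of 45101 probes, 64 control probes were left out. Of the 45037 others, 34945 had 1 gene symbol in the platform annotation, 932 several and 9160 none, and 34741 symbols were updated through Entrez identifiers. Values were floored at 3.04, the 20th percentile of all values, and log2 transformed, and each gene was read from its probe with the highest mean (18193 genes, 9010 with more than 1 probe). Near-identical genes may share probes.

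Groups came from the labelled agent and time point. A model of 4 group means over all 12 arrays was fitted with limma 3.58.1 (R 4.3.3, empirical Bayes, Benjamini-Hochberg adjustment, threshold 0.05), once as deposited and once after quantile normalization, and adjusted p-values are from the first of these fits unless an array is said to be left out. The procedure was tested on simulated data. Of the genes, 591 were at the floor on all 3 h and 6 h arrays. Depth has no count on arrays, and 3 arrays per group limit the precision. Correlation of the residuals of same-numbered arrays was -0.00537 to 0.0409 over 18 pairs, so the numbers were not taken to pair them.

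The members, lists and rules were chosen with earlier results of these data known. Named genes are the 15 largest rises and falls that did not overlap between groups on either scale, up to 5 each way with 1 group wholly at the floor, the 4 largest changes of each list and the study's network genes but 1, not reported here. Members outside this rule (among them Saa1, Atf4, Chac1, Tars, Aars, Fgf21 and Slc7a11, and those named to complete a count, such as Shmt2, Bcl3, Birc2, Birc3, Parp14, Il6st, Tnfrsf1a, Scap and Cyp51) were picked after their values were seen. Promoters are RefSeq's (GRCm38.p6). Alternatives covered scaling, floor, filter, probe choice, trend, arrays and thresholds, and 3 on the spike-ins were chosen after seeing the data.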

Additional observations from a re-analysis of the deposited data

How the results depend on the processing

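Counts are given as higher and lower as deposited, then higher and lower under both scalings, beside 3412, 695, 1689 and 695. Quantile normalization gave 1691 and 1862, and 1691 and 1862. Centring each array on its median gave 1265 and 2471, and 1240 and 1850, and centring on all spike-ins 4876 and 403, and 1691 and 403. Reading all 45037 probes in place of genes gave 6444 and 1092, and 2737 and 1092, and requiring at least 2-fold on each scale 1114 and 272, and 419 and 272. Among alternatives chosen after seeing the data, the bioC level as a block gave 1251 and 324, and 734 and 324, and 3 h replicate 1 as the only 3 h array gave 1193 and 297, and 702 and 296. Both of these rest on fewer arrays. Centring on the spike-ins without bioC gave 3145 and 630, and 1687 and 630. Leaving out 1 array at a time gave 2249 (without 6 h replicate 2) to 3609 higher and 489 (without 6 h replicate 3) to 732 lower, and under both scalings 1149 to 1687 and 489 to 732. The floor at the 40th percentile, a pseudocount of 1, the mean of all probes, the brighter genes, the intensity trend and the 6 arrays alone moved none of these counts by more than 1.5 times. The genes behind the counts changed more. Of the 1689 rises and 695 falls, 1059 and 475 were called again with the mean of all probes. With the 6 arrays alone 1156 and 507 were.

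The replicate number as a block gave 3400 and 730, and 1507 and 730. The arrays share only a number, since same-numbered 3 h and 6 h arrays correlated by 0.00238 to 0.032 in their residuals.

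Of 6306 values of 244 named genes under the alternatives, 511 fell short of the threshold, 10 newly passed it and 2 changed sign. Fkbp4 was at 0.11 and Masp1 at 0.075 on the log2 scale when all their probes were averaged. In that setting 33 others of the 244 fell short of the threshold. With the bioC block 141 of the 244 kept their side of the threshold and direction. Genes that had not passed over all arrays and again did not, such as Alb, Xbp1 and Saa1, count among those that kept their side. The causes were not tested.

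These arrays cannot separate time of day from time since ConA, and signals near the floor carry little information. At an unadjusted p under 0.05, 6277 genes passed.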
